A study of Mus musculus with 16 samples.

Results

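Integrins are the transmembrane receptors that attach cells to the extracellular matrix, and laminins are the large basement membrane proteins that several of them bind. Mouse genes were taken by symbol: those starting with Itga or Itgb, without the binding-protein genes Itgb1bp1, Itgb1bp2 and Itgb3bp and without Itgbl1, and those named Lama, Lamb or Lamc followed by a digit. The rule gave 38 genes, 27 integrins and 11 laminins, of 25719 genes in the deposited counts, and used no measured value. It was, however, chosen with earlier results of these data known. RNA was sequenced from tail tendon fascicles, the thin collagen strands of the mouse tail, in 8 wild type and 8 knockout libraries. The knockout carries ScxCre and Vhlf/f, so that Cre made from the promoter of Scx, a transcription factor gene of tendon cells, removes floxed Vhl in the Scx lineage. The product of Vhl recognises hypoxia-inducible factors (HIF) for a ubiquitin ligase, which leads to their degradation. Cells outside that lineage keep Vhl, and each library averages over all cells of the tissue per the labels. The labels used here give no age, no sex, no strain and no treatment, do not say whether the wild type mice carry the floxed allele, and do not say whether a library is 1 animal or a pool. If the 8 libraries of a group are not separate animals, the p-values measure only the spread between these libraries.

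Total counts per library lay between 10792900 and 16379401 in the wild type and between 10488355 and 18753254 in the knockout. Vhl itself lay between 14.1 and 25.8 CPM (counts scaled to the normalised library size) in the wild type and between 7.51 and 10.9 CPM in the knockout, so every library followed its label. All 9 tenocyte markers of the tissue were detected, with a summed level of 137000 to 386000 CPM in the wild type and 82400 to 184000 CPM in the knockout, and 7 of the 9 fell while none rose. Markers of several other cell types differed between the genotypes. Over all tested genes 25.6% rose and 22.7% fell (edgeR adjusted p under 0.05). The 14 endothelial markers summed to 41.8 to 65.3 CPM in the wild type and 69.9 to 724 CPM in the knockout, and 8 of the 10 that were tested rose. Among these, Robo4 and Pecam1, with 0 to 0.199 and 0.253 to 2.02 CPM in the wild type, passed the filter on low counts through their knockout libraries. This favours a call of an increase. The 11 mural cell markers summed to 358 to 476 CPM and 337 to 1560 CPM, with 5 of 8 higher and 1 lower. Most of the wild type sum was Cspg4, the lower gene, and Pdgfrb, which did not pass, with medians of 226 and 145 CPM. Rgs5 rose from a median of 0.834 to 206 CPM, and it too passed the filter through its knockout libraries. The 18 skeletal muscle markers varied most, from 113 to 11400 CPM in the wild type and from 463 to 26900 CPM in the knockout. These ranges overlapped widely, and 3 of 18 (16.7%) were higher and none lower, under the share of all tested genes. Knockout libraries 6, 7 and 8 had both the highest muscle scores and the highest endothelial scores of the knockout, a score being the mean log2 CPM of the tested markers. The 7 erythroid markers summed to 15.1 to 50.8 CPM in the wild type and 77.8 to 563 CPM in the knockout, without overlap, and all 5 that were tested rose. None of the endothelial, mural, muscle or erythroid markers was at 0 in all libraries of a group. In bulk tissue, fewer cells of a type and less RNA per cell cannot be told apart.

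As background, an integrin is a pair of an α and a β chain, and the α chain largely sets the ligand. The α1, α2, α10 and α11 chains pair with β1 and bind collagens. The α3, α6 and α7 chains bind laminins, α6 also with β4 in hemidesmosomes, the junctions that hold epithelia to their basement membrane. The α5, α8, αv and αIIb chains recognise the RGD peptide of fibronectin, vitronectin and related proteins, with β1 or with β3, β5, β6 and β8. The β2 and β7 chains and their partners are found on leukocytes. A laminin is a trimer of an α, a β and a γ chain, and it links basement membranes to integrins and to dystroglycan. In tendon, cells are held to type I collagen largely by collagen-binding integrins, while basement membranes lie around vessels, nerves and the tendon sheath.

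Integrin and laminin transcripts changed in both directions. Of the 38 genes, 33 passed the filter on low counts and were tested with the quasi-likelihood test of edgeR across all 14803 tested genes. Past the adjusted p threshold of 0.05 were 23 (69.7%), 14 higher and 9 lower in the knockout. Over all tested genes the shares were 48.3% past the threshold, 25.6% higher and 22.7% lower. The median log2 fold change of the 33 was 0.17, against 0.02 for all tested genes, and values ran from -1.45 for Lama3 to 3.52 for Itgax. In 7 genes every knockout library lay above every wild type library, and in 5 every one lay below, where the shares over all tested genes were 10.8% and 8.61%. Among the higher genes, Itgax and Lamc3 passed the filter through their knockout libraries, which favours a call of an increase. The 5 untested genes were Itgad, Itgae, Itgal, Itgb2l and Lama1.

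**Figure D1:**
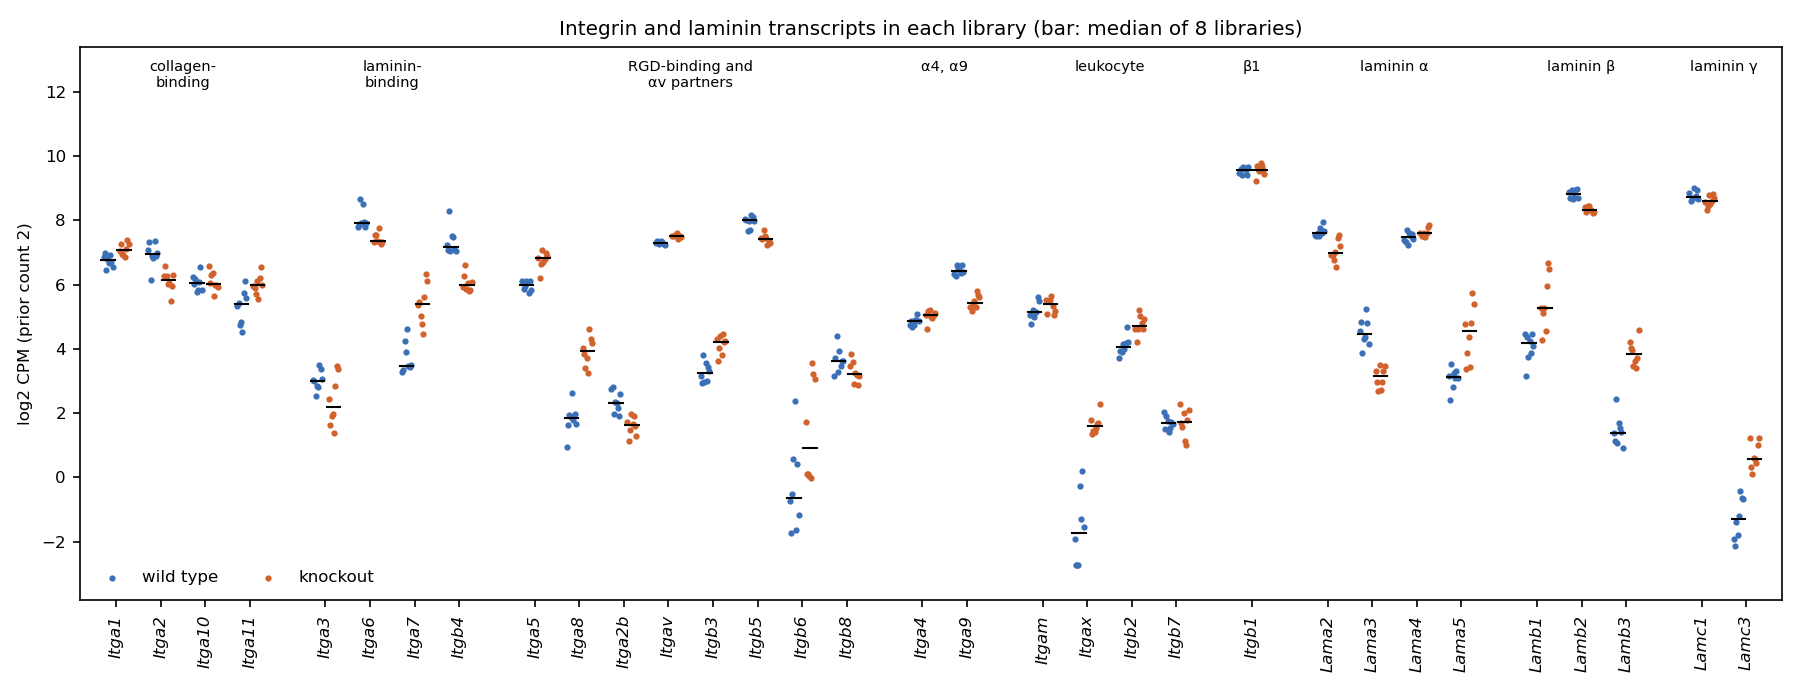
The plot of transcript level by library gives log2 CPM (vertical axis) for the tested integrin and laminin genes described here, with 1 point per library, 8 wild type (blue) and 8 knockout (orange), and a bar at each median. Lamb3, Lamc3, Itga5, Itga8, Itgav and Itgax show no overlap with the knockout above, and Itga6, Itga9, Itgb4, Lama3 and Lamb2 none with the knockout below.

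The counts of calls differed with the scaling and with the covariates in the fit. With total counts and no scaling factor, all tested genes had a median of 0.32 in place of 0.02, and 85.4% of all calls were increases in place of 53.0%. On that scale 20 of the integrin and laminin genes were higher and 7 lower, and Itga4, Itga10, Itgam, Itgb1, Itgb6 and Lama4 passed as higher. With the endothelial marker score as a covariate, 7 were higher and 8 lower, and 13 of the 23 calls kept their direction and threshold. That score itself did not overlap between the genotypes, from 1.03 to 1.96 in the wild type and from 2.19 to 5.65 in the knockout, so the covariate and the genotype share much of their variation. The score averages the tested markers, of which Robo4 and Pecam1 passed the filter through their knockout libraries. Without knockout libraries 6, 7 and 8, which were chosen after the values were seen, 13 genes were higher and 11 lower, and 22 of the 23 calls kept direction and threshold.

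**Figure D2:**
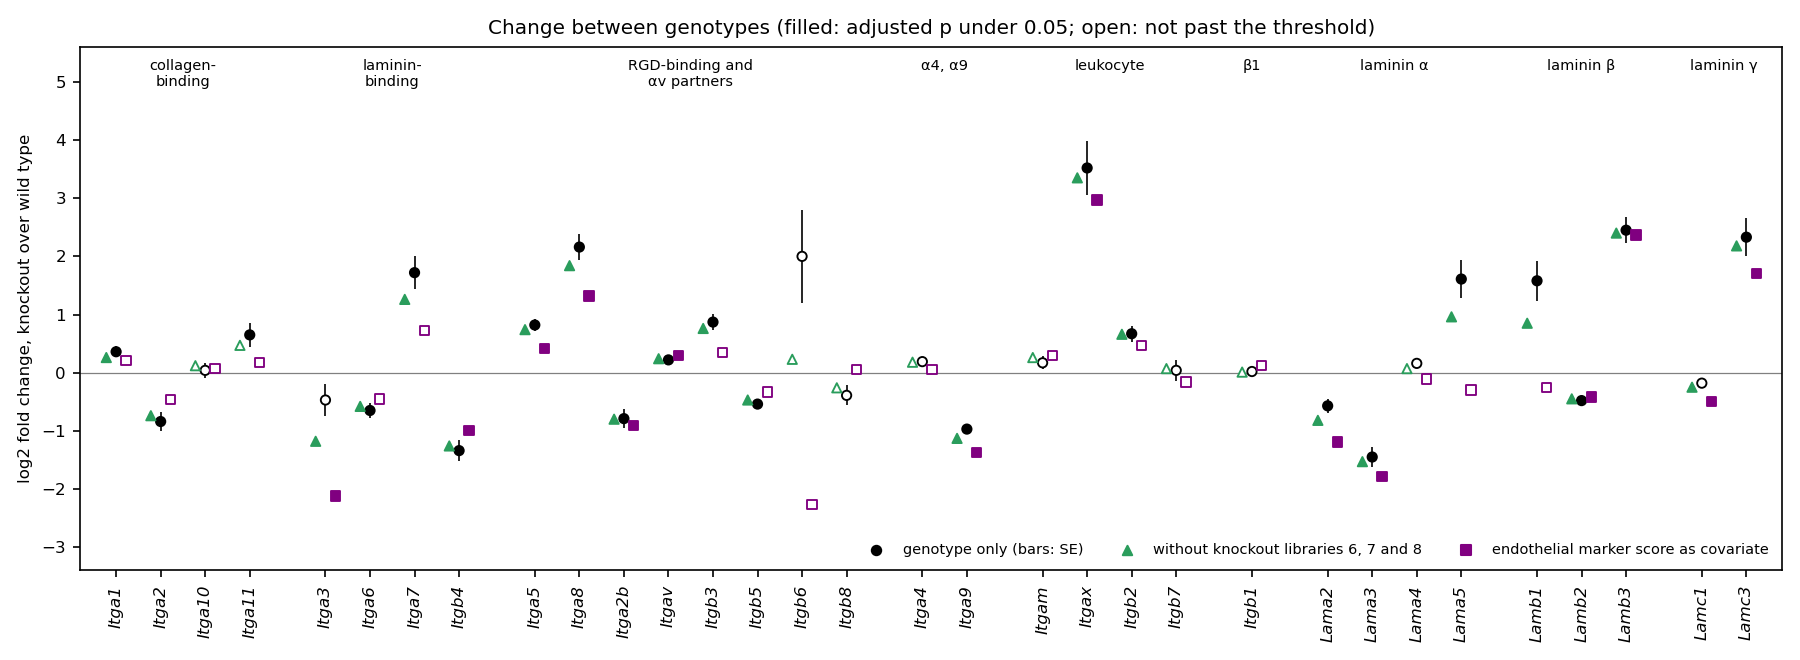
The plot of fold changes gives the log2 fold change of the knockout over the wild type (vertical axis) for the tested genes described here, with genotype as the only term (black circles with SE), without knockout libraries 6, 7 and 8 (green triangles) and with the endothelial marker score as a covariate (purple squares). Filled symbols passed the adjusted p threshold. Lamb3 lies at 2.45 with genotype only and at 2.37 with the covariate, whereas Lama5 goes from 1.61 to -0.30.

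The laminin chains are the ligands of this family, and 8 of the 10 tested changed, 5 higher and 3 lower. Lamb3 and Lama3, chains known from the laminin that anchors epithelia through α6β4, went opposite ways. Lamb3, the β3 chain (ENSMUSG00000026639, on chromosome 1), had 1.74, 2.48 and 5.31 CPM as lowest, median and highest wild type value and 10.4, 14.3 and 23.9 CPM in the knockout. Every knockout library was above every wild type library, and wild type library 3 was the highest of its group. Its log2 fold change was 2.45 (SE 0.222, edgeR adjusted p = 3.15e-08), and it lay between 2.31 and 2.73 over all alternatives. Lama3, the α3 chain, had 14.6, 21.9 and 37.6 CPM in the wild type and only 6.32, 8.77 and 11.2 CPM in the knockout. Every knockout library was below every wild type library, and the log2 fold change was -1.45 (SE 0.180, adjusted p = 2.27e-06). Within a library, the log2 ratio of Lama3 to Lamb3 lay between 1.43 and 3.71 in the wild type and between -1.28 and 0.04 in the knockout. That the ratio did not overlap follows from the separation of each gene and is no further evidence. Both calls held under all alternatives tried. Keratinocyte markers, the cells in which this laminin is best known, summed to 32.5 to 65.7 CPM in the wild type and 29.3 to 35.9 CPM in the knockout over 9 genes, with 1 of 5 tested higher and 3 lower. The largest part of the sum was Dsp, with a median of 22.3 CPM in the wild type and 11.8 CPM in the knockout. Krt5 and Krt14 were too low to be tested. They reached at most 0.0995 and 0.234 CPM in the wild type and 0.0849 and 0.17 CPM in the knockout. Krt1 was at 0 in all 16 libraries and Dsg3 in all knockout libraries. The part of these cells in the laminin values was not tested.

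The sequences before the transcription starts of Lamb3, the laminin gene with the largest increase, and of Itga9, the α9 integrin gene described below that fell without overlap, are shown because both hold the core of the HIF response element. They come from RefSeq on GRCm38.p6, while the submitters' processing notes name GRCm39 for the counts. Capitals mark ACGTG or GCGTG searched on both strands, of which ACGTG also lies within the E-box CACGTG, and bases within annotated exons were left out at the 3′ end. Lamb3 is given at chr1:193301744-193301992 and Itga9 at chr9:118711442-118711656, both on the plus strand, 5′ to 3′.
Lamb3: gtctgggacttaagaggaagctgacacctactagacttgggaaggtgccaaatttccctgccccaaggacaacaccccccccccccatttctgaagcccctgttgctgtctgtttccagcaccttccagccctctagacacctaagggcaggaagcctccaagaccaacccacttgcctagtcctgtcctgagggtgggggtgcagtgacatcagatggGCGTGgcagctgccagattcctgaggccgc
Itga9: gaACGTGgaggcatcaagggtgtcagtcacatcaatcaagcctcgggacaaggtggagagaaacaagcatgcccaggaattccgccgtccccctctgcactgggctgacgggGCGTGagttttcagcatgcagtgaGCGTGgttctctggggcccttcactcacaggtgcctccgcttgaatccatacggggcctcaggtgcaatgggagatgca

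In this Lamb3 window the single match begins 31 bases before the start, while the window before another annotated start of Lamb3 held no match. In Itga9 the matches begin 248, 138 and 114 bases before the start. Of the 38 genes, 24 had an entry in the promoter table, and 6 of these (25.0%) had at least 1 match in the 250 bases before a start. They were Lamb3, Lamb1 and Itgax among the higher genes and Itga2, Itga9 and Itgb5 among the lower genes. The same motif was found in 38.6% of all 32851 windows of this length and in 60.4% of the tested genes with a window. A match is a string of letters and not a measured binding site.

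Lama5 and Lamb1, the α5 and β1 chains that are abundant in vessel basement membranes, rose with a wide spread between knockout libraries. Lama5 (chromosome 2) had 5.22, 8.55 and 11.4 CPM in the wild type and 10.3, 23.8 and 53.4 CPM in the knockout. The knockout values were above the wild type range in 6 of 8 libraries, and libraries 2 and 5 lay within it. The change was 1.61 on the log2 scale (SE 0.330, edgeR adjusted p = 7.71e-04). Lamb1 (chromosome 12) had 8.77, 17.9 and 22.1 CPM in the wild type and 19.4, 38.4 and 102 CPM in the knockout. All but knockout library 2 were above the wild type range, and the log2 fold change was 1.58 (SE 0.340, adjusted p = 0.00119). For both genes the 5 highest knockout libraries were the 5 with the highest endothelial score, 7, 8, 6, 1 and 4. Without libraries 6, 7 and 8 the fold changes were 0.96 (adjusted p = 0.00282) and 0.85 (adjusted p = 0.00471). With the endothelial score as a covariate they changed sign, to -0.30 (adjusted p = 0.344) and -0.25 (adjusted p = 0.511).

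**Figure D3:**
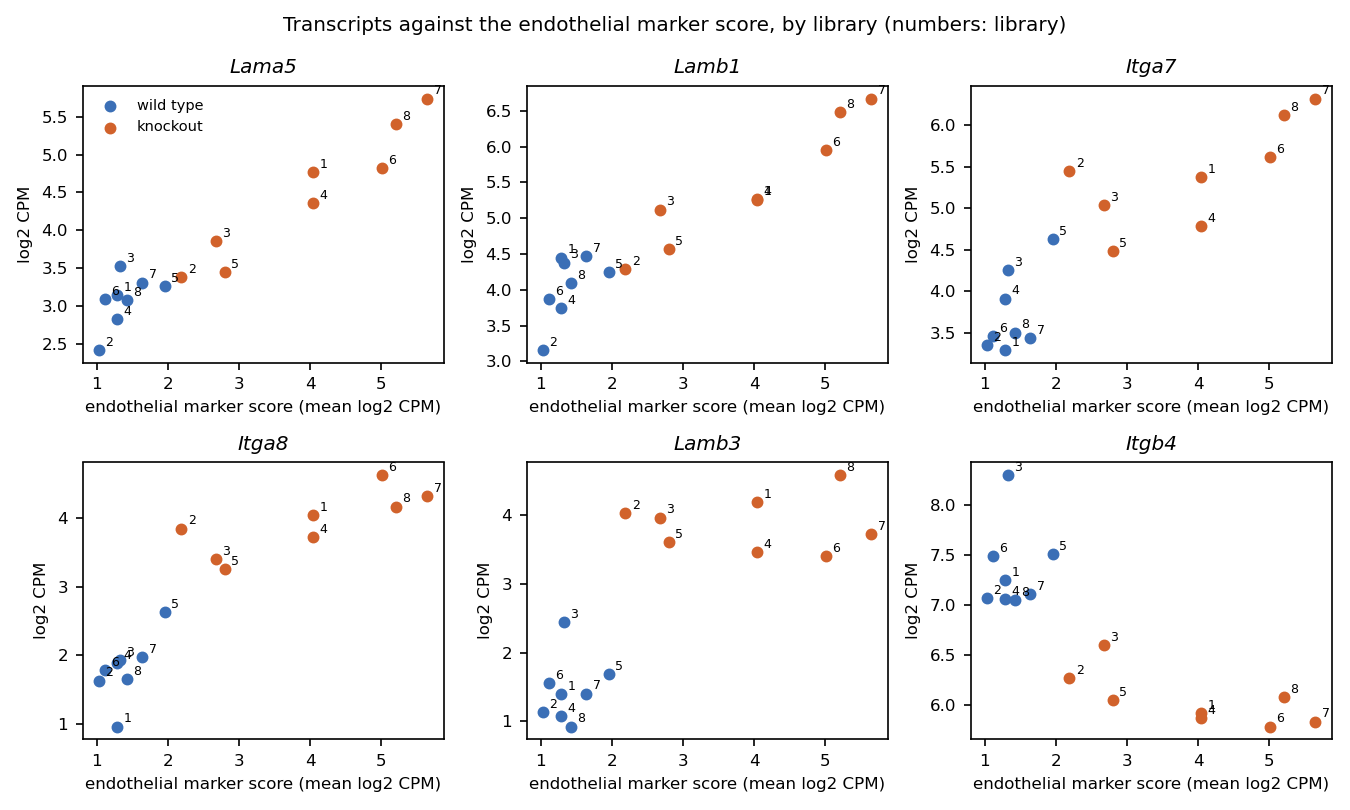
The plots against the endothelial marker score give log2 CPM of 6 genes (vertical axes) over the mean log2 CPM of the tested endothelial markers (horizontal axes), with 1 numbered point per library, wild type in blue and knockout in orange. Lama5 and Lamb1 are highest in knockout library 7, at a score of 5.65, and Lamb3 is as high in knockout library 2, at a score of 2.19, as in libraries with a higher score.

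Lama2 and Lamb2, the α2 and β2 chains, were lower. Lama2 (chromosome 10) had 184, 195 and 250 CPM in the wild type and 93.5, 126 and 187 CPM in the knockout. In 7 of 8 knockout libraries it was below the wild type range, and the highest values were those of libraries 6 and 7, which also had high muscle scores. The change was -0.57 (SE 0.121, edgeR adjusted p = 5.79e-04), -0.82 without libraries 6, 7 and 8 and -1.19 with the endothelial score as a covariate. Lamb2 (chromosome 9) had 408, 451 and 506 CPM in the wild type and 301, 321 and 352 CPM in the knockout, with no overlap (log2 fold change -0.48, SE 0.0684, adjusted p = 8.04e-06). With total counts both lost the threshold, Lama2 at -0.27 (adjusted p = 0.0886) and Lamb2 at -0.18 (adjusted p = 0.0582).

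Of the chains with a broad distribution, Lama4, the α4 chain of vessel and fat basement membranes, had 150, 177 and 209 CPM in the wild type and 177, 196 and 232 CPM in the knockout, and missed the threshold (log2 fold change 0.16, SE 0.0766, edgeR adjusted p = 0.0991). Lamc1, the γ1 chain shared by most laminins, had 386, 425 and 513 CPM in the wild type and 321, 385 and 451 CPM in the knockout (-0.18, SE 0.0834, adjusted p = 0.0877), and its sign changed with total counts, to 0.13. It passed as lower with the muscle score (-0.27, adjusted p = 0.0156) or the endothelial score (-0.50, adjusted p = 0.00404) as a covariate and without libraries 6, 7 and 8 (-0.25, adjusted p = 0.0489). Without wild type library 3, Lama4 passed at 0.19 (adjusted p = 0.0499). Lamc3, the γ3 chain, was near the floor of detection of 3 counts in the wild type, with 1 to 7 counts per library, and had 11 to 38 counts per library in the knockout. All 8 knockout libraries were above the wild type, and the log2 fold change was 2.33 (SE 0.322, adjusted p = 6.10e-06). Lamc3 entered the test through its knockout libraries, which favours a call of an increase. Lama1, the α1 chain of early embryonic basement membranes, had 1 count over all wild type libraries and 9 over all knockout libraries, and was not tested.

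Per kilobase of exon, the make-up of the laminin chains differed between the groups in these libraries. Lama4 made up 49.1% ± 2.67 of the α chains in the wild type against 59.8% ± 5.02 in the knockout (SD, n = 8), and Lama2 made up 41.0% ± 2.32 and 29.5% ± 3.10. Lama3 went from 7.38% ± 2.22 to 2.93% ± 0.501 and Lama5 from 2.47% ± 0.419 to 7.68% ± 3.35, so the order of these chains was reversed. With the length of the longest coding transcript in place of all exons, the order was the same in each group. Lamb2 made up 97.2% ± 0.591 of the β chains in the wild type against 87.9% ± 5.12 in the knockout. Lamb3 remained a small share, 0.530% ± 0.188 and 3.73% ± 1.06 of the β chains. These shares are descriptions without a test.

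**Figure D4:**
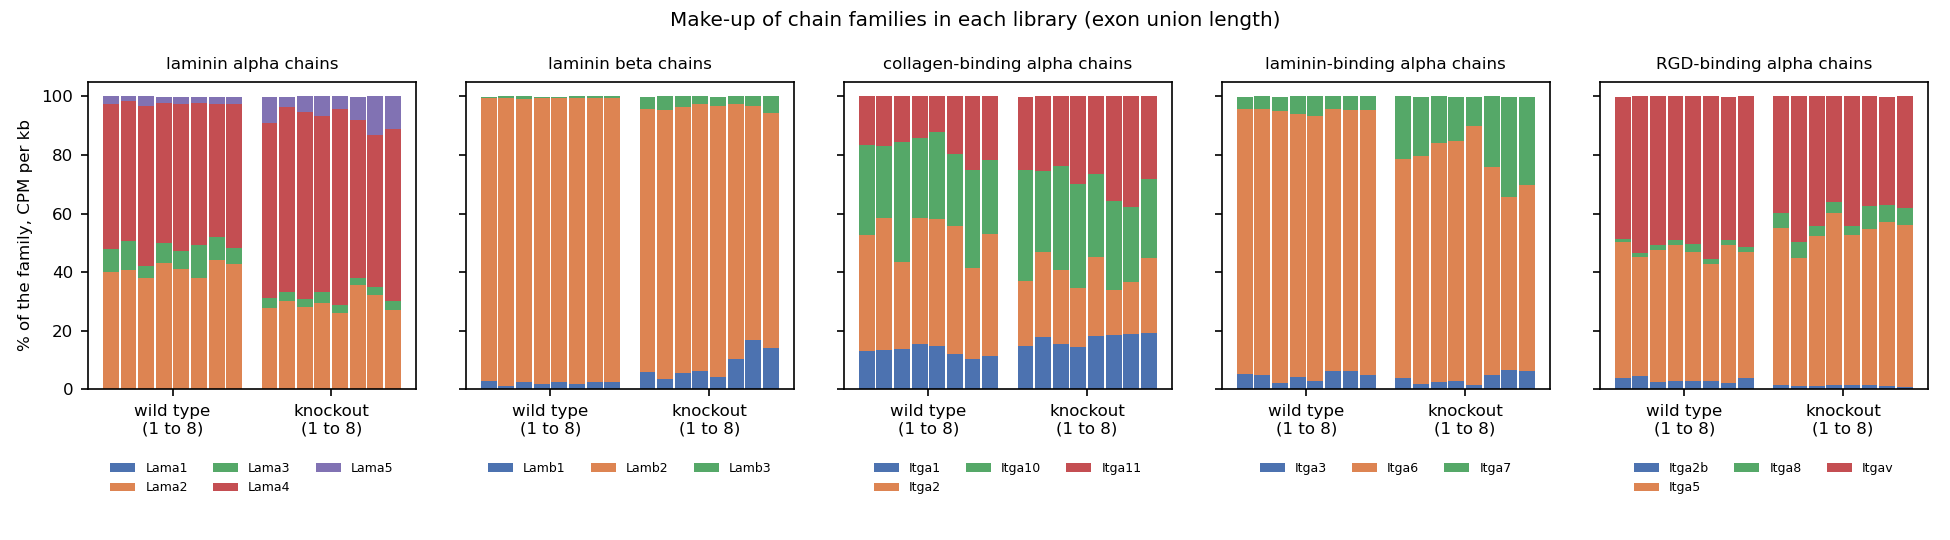
The plot of chain make-up gives the share of each chain in its family (vertical axis, percent of CPM per kilobase of exon) as stacked bars, 1 per library, wild type libraries 1 to 8 on the left of each panel and knockout libraries 1 to 8 on the right. The Lama5 share reaches 13.2% and the Lamb1 share 16.7% in a single knockout library, and the Itga7 share 34.2%.

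The laminin-binding integrins split as well, with 1 of 4 higher and 2 lower. The pair of the hemidesmosome, α6 and β4, was lower. Itgb4, the β4 chain (ENSMUSG00000020758, chromosome 11), had 133, 145 and 314 CPM in the wild type and 55.1, 63.2 and 96.7 CPM in the knockout. The groups did not overlap, and wild type library 3 stood above the other wild type libraries. The log2 fold change was -1.34 (SE 0.177, edgeR adjusted p = 6.19e-06), and -1.16 without wild type library 3. Itga6, the α6 chain (chromosome 2), had 223, 242 and 405 CPM in the wild type and 154, 163 and 220 CPM in the knockout, again without overlap and again highest in wild type library 3 (log2 fold change -0.65, SE 0.127, adjusted p = 2.91e-04). With the endothelial score as a covariate Itgb4 remained past the threshold at -0.99 (adjusted p = 0.0193) and Itga6 did not, at -0.45 (adjusted p = 0.140). Schwann cell markers, another cell type that carries α6β4, summed to 33.6 to 48.3 CPM over 8 genes in the wild type and 32.0 to 89.7 CPM in the knockout, with 1 of 5 tested higher and none lower, and Sox10 too low to be tested. The part of these cells was not tested.

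Itga7, the α7 chain (chromosome 10) that is the main laminin receptor of muscle and is also found on mural cells, rose. It had 9.64, 11.0 and 24.7 CPM in the wild type and 22.1, 42.5 and 79.7 CPM in the knockout. In 7 of 8 knockout libraries it was above the wild type range, and the highest wild type value was that of library 5, which also had the highest muscle score of the wild type, 8.08. The change was 1.72 (SE 0.282, edgeR adjusted p = 9.83e-05). It was 1.18 (adjusted p = 1.91e-05) with muscle score in the fit, 1.26 (adjusted p = 5.35e-04) without libraries 6, 7 and 8, and 0.72 (adjusted p = 0.128) with the endothelial score as a covariate. Itga3, the α3 chain of epithelial cells, had 5.62, 7.91 and 11.1 CPM in the wild type and 2.47, 4.52 and 11.0 CPM in the knockout. It missed the threshold with all libraries (-0.47, SE 0.282, adjusted p = 0.179). Its 3 highest knockout values were those of libraries 6, 7 and 8, and without them the fold change was -1.18 (SE 0.195, adjusted p = 1.01e-04). Leaving out library 7 alone also gave a call (-0.68, adjusted p = 0.0414), as did covariates for muscle (-0.91, adjusted p = 0.0235) and endothelium (-2.12, adjusted p = 3.88e-05). Per kilobase of exon, Itga6 made up 90.4% ± 1.28 of the laminin-binding α chains in the wild type against 74.7% ± 9.90 in the knockout, and Itga7 made up 5.04% ± 0.937 and 21.4% ± 8.04 (SD, n = 8).

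Among the collagen-binding integrins, α2 fell while α1 and α11 rose, and the groups overlapped in all 4 genes. Itga2 (ENSMUSG00000015533, chromosome 13), whose protein binds type I collagen with β1, had 71.2, 124 and 165 CPM in the wild type and 44.4, 71.6 and 94.7 CPM in the knockout. The overlap came from wild type library 3, the lowest of its group. On the log2 scale the change was -0.84 (SE 0.157, edgeR adjusted p = 2.37e-04), and -0.93 without that library. Itga1, which prefers type IV collagen and is found on mural and endothelial cells, had 87.4, 108 and 127 CPM in the wild type and 116, 136 and 169 CPM in the knockout, with 5 of 8 knockout libraries above the wild type range (0.36, SE 0.0907, adjusted p = 0.00255). Itga11, a fibroblast receptor for fibrillar collagen, had 23.0, 41.8 and 69.1 CPM in the wild type and 46.7, 62.8 and 94.0 CPM in the knockout (0.65, SE 0.208, adjusted p = 0.0165). Only 2 knockout libraries were above the wild type range, since wild type library 7 was high. Without libraries 6, 7 and 8 its fold change was 0.47 (adjusted p = 0.121), and 0.63 (adjusted p = 0.0548) once the muscle score entered the fit. Itga10, the collagen receptor known from cartilage, had 54.7, 66.4 and 93.7 CPM in the wild type and 50.5, 64.7 and 94.9 CPM in the knockout (0.04, SE 0.126, adjusted p = 0.815). With the endothelial score as a covariate none of the collagen-binding chains passed, with Itga2 at -0.46 (adjusted p = 0.211), Itga1 at 0.21 (adjusted p = 0.340) and Itga11 at 0.18 (adjusted p = 0.750).

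The log2 ratio of Itga1 to Itga2 within a library lay between -0.46 and 0.29 in the wild type and between 0.67 and 1.63 in the knockout, with no overlap although each gene alone overlapped. The ratio of Itga11 to Itga2 lay between -2.31 and -0.79 in the wild type and between -0.67 and 0.73 in the knockout. Itga2 was called lower and Itga1 and Itga11 higher, which favours a separation of such ratios. No share over other gene pairs was taken. Per kilobase of exon, Itga2 had the largest mean share of the collagen-binding α chains in the wild type, 39.5% ± 5.90, ahead of Itga10 at 29.7% ± 5.59, Itga11 at 17.7% ± 4.20 and Itga1 at 13.1% ± 1.71 (SD, n = 8). In wild type libraries 3 and 7 the order was the other way, with Itga10 at 41.1% and 33.5% and Itga2 at 29.6% and 31.1%. In the knockout Itga10 was at 30.9% ± 4.63, Itga11 at 29.1% ± 5.20, Itga2 at 22.9% ± 4.67 and Itga1 at 17.1% ± 1.96. The first 2 of these differed by less than their spread. With the longest coding transcript as the length, Itga2 also had the largest mean share in the wild type (35.8%) and the lowest in the knockout (20.2%).

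Of the 8 RGD-binding chains and αv partners, 4 rose, 2 fell and 2 missed the threshold. Itga8, the α8 chain (ENSMUSG00000026768, chromosome 2) that binds nephronectin and is found on smooth muscle and mesenchymal cells, rose most. It had 1.79, 3.42 and 6.05 CPM in the wild type and 9.44, 15.3 and 24.6 CPM in the knockout, with no overlap. The log2 fold change was 2.16 (SE 0.218, edgeR adjusted p = 1.51e-07), 1.84 without libraries 6, 7 and 8, and 1.32 (adjusted p = 6.11e-04) with the endothelial score as a covariate. Itga5, the α5 chain of the fibronectin receptor (chromosome 15), had 52.8, 64.2 and 69.0 CPM in the wild type and 73.9, 113 and 136 CPM in the knockout, without overlap (0.82, SE 0.0985, adjusted p = 1.09e-06). With the endothelial score as a covariate it was 0.41 (adjusted p = 0.0326). Itgav, the αv chain (chromosome 2), changed little but with a narrow spread. It had 149, 158 and 165 CPM in the wild type and 170, 183 and 197 CPM in the knockout, without overlap (0.22, SE 0.0478, adjusted p = 8.87e-04).

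The β partners of αv diverged. Itgb3, the β3 chain of the vitronectin receptor, also of platelets, had 7.49, 9.30 and 13.9 CPM in the wild type and 12.2, 18.6 and 21.8 CPM in the knockout, with 7 of 8 knockout libraries above the wild type range (log2 fold change 0.87, SE 0.140, edgeR adjusted p = 3.89e-05). Itgb5, the β5 chain (chromosome 16), had 205, 257 and 287 CPM in the wild type and 150, 172 and 208 CPM in the knockout, with 7 of 8 knockout libraries below the wild type range (-0.54, SE 0.0826, adjusted p = 1.91e-05). Both missed the threshold with the endothelial score as a covariate, at 0.35 (adjusted p = 0.227) and -0.33 (adjusted p = 0.0872). The log2 ratio of Itgav to Itgb5 lay between -0.84 and -0.35 in the wild type and between -0.14 and 0.20 in the knockout. Itgav was called higher and Itgb5 lower, which favours a separation of their ratio. Itgb8, the β8 chain that activates latent TGFβ with αv, had 8.86, 12.2 and 20.9 CPM in the wild type and 7.23, 9.18 and 14.3 CPM in the knockout, and missed the threshold (-0.39, SE 0.171, adjusted p = 0.0684). It passed without wild type library 1 (-0.45, adjusted p = 0.0370), wild type library 4 (-0.44, adjusted p = 0.0438) or knockout library 2 (-0.48, adjusted p = 0.0225). Itgb6, an epithelial chain with the same role, differed by 2.00 (SE 0.796, adjusted p = 0.05001). It had 8.15 to 11.6 CPM in knockout libraries 6, 7 and 8, at most 3.16 CPM in the other knockout libraries, and 5.09 CPM in wild type library 5, the library with the highest muscle score of the wild type. Without libraries 6, 7 and 8 the difference was 0.23 (adjusted p = 0.828). Without wild type library 5 it was 2.91 (adjusted p = 0.00650), and it also passed without knockout library 2, 3, 4 or 5, between 2.14 and 2.16. Itga2b, the αIIb chain of platelets, fell from a median of 4.88 to 2.96 CPM (-0.79, SE 0.164, adjusted p = 4.95e-04), with 6 of 8 knockout libraries below the wild type range. The 6 platelet markers summed to 56.9 to 94.4 CPM in the wild type and 39.4 to 76.2 CPM in the knockout, with 1 of 3 tested higher and 1 lower. Most of the sum was Pf4, the lower gene, with a median of 59.5 CPM in the wild type and 38.4 CPM in the knockout. Gp1bb was the higher gene, and Ppbp, Gp9 and Tubb1 were too low to be tested. The part of platelets in the Itga2b values was not tested.

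Itga5 made up 44.1% ± 2.71 of the RGD-binding α chains per kilobase of exon in the wild type against 52.8% ± 4.50 in the knockout, and Itgav made up 51.0% ± 2.40 and 40.8% ± 4.77 (SD, n = 8). Which of the pair led in the knockout depended on the length used, since with the longest coding transcript Itga5 was at 45.8% and Itgav at 47.8%. Itga8 remained a small share, 1.65% ± 0.527 and 5.06% ± 1.56.

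Itga9 and Itga4 form a family of their own, which binds tenascin, osteopontin, SVEP1 and VCAM1. Itga9, the α9 chain (ENSMUSG00000039115, chromosome 9) whose upstream sequence is given above, had 77.8, 85.7 and 97.9 CPM in the wild type and 36.5, 43.2 and 55.8 CPM in the knockout. The groups did not overlap, and the log2 fold change was -0.97 (SE 0.0847, edgeR adjusted p = 1.35e-08). Over all alternatives it lay between -1.37 and -0.67. Itga4, the α4 chain of leukocytes and mesenchymal cells, had 25.4, 29.0 and 33.6 CPM in the wild type and 24.6, 33.1 and 37.2 CPM in the knockout, and missed the threshold (0.19, SE 0.0793, adjusted p = 0.0596). It passed without knockout library 2, the lowest of its group (0.24, adjusted p = 0.00735), and without wild type library 7, the highest (0.22, adjusted p = 0.0287).

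Of the 8 leukocyte chains, 4 were tested, 2 rose and none fell. Itgb2, the β2 chain shared by LFA-1 and Mac-1 (ENSMUSG00000000290, chromosome 10), had 13.1, 16.6 and 25.3 CPM in the wild type and 18.4, 26.1 and 36.9 CPM in the knockout, with 4 of 8 knockout libraries above the wild type range (log2 fold change 0.67, SE 0.137, edgeR adjusted p = 4.73e-04). With the endothelial score as a covariate it was 0.47 (adjusted p = 0.154). Itgam, its partner in Mac-1 on macrophages and neutrophils, had 27.5, 35.4 and 48.8 CPM in the wild type and 33.1, 42.6 and 50.6 CPM in the knockout (0.17, SE 0.114, adjusted p = 0.227). Itgax, its partner on dendritic cells and some macrophages, had 0 to 10 counts per wild type library, 23 in all, and 28 to 64 counts per knockout library. Every knockout library was above every wild type library, 2.38 to 4.67 CPM against 0 to 0.995 CPM, and the log2 fold change was 3.52 (SE 0.466, adjusted p = 4.35e-06). In 6 of the 8 wild type libraries Itgax was at or under the floor of 3 counts. It entered the test through its knockout libraries, which favours a call of an increase. Itgb7, the β7 chain of lymphocytes, differed by 0.04 (SE 0.182, adjusted p = 0.862).

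Among the untested leukocyte chains, Itgal, the α chain of LFA-1, had 0.139 to 0.681 CPM in the wild type and 0.765 to 2.38 CPM in the knockout, without overlap. Itgae, the α chain of intraepithelial lymphocytes, had 0 to 0.336 CPM and 0.485 to 1.10 CPM, also without overlap. Without the filter on low counts these genes passed the threshold, at 1.98 (SE 0.312, edgeR adjusted p = 2.40e-05) and 1.76 (SE 0.352, adjusted p = 3.42e-04). Itgad, a macrophage chain, also passed without that filter (2.15, SE 0.752, adjusted p = 0.0276). It had 10, 20 and 5 counts in knockout libraries 6, 7 and 8 and at most 3 in any other library. Its exons overlap those of the muscle gene Cox6a2 on the other strand. Knockout libraries 6, 7 and 8 had the highest muscle scores and also the highest endothelial scores. Whether reads of Cox6a2 entered the Itgad counts was not tested. Itgb2l, a β2-like chain, had no count in the wild type and 3 counts over all knockout libraries, and 3 counts correspond to 0.145 to 0.336 CPM depending on the library. The 13 macrophage markers summed to 1300 to 1890 CPM in the wild type and 1490 to 2160 CPM in the knockout, with 6 of 13 higher, none lower and none at 0 in a whole group. The 9 lymphocyte markers summed to 0.96 to 2.13 CPM in the wild type and 1.43 to 3.74 CPM in the knockout, with overlap. Only Cd4 was tested, and it rose (0.88, SE 0.312, edgeR adjusted p = 0.0257). Cd3d, Cd3e, Cd3g and Nkg7 had a median of 0 CPM in both groups. The 5 neutrophil markers, none of them tested, summed to 0 to 0.209 CPM in the wild type and 0.405 to 1.62 CPM in the knockout, without overlap. Ly6g was at 0 in all libraries. The part of these cells in the leukocyte chains was not tested.

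Itgb1, the β1 chain that pairs with most of the α chains above (chromosome 8), was the most abundant integrin and did not pass the threshold. It had 686, 768 and 811 CPM in the wild type and 606, 766 and 885 CPM in the knockout (log2 fold change 0.02, SE 0.0787, edgeR adjusted p = 0.838). With total counts it was 0.33 (adjusted p = 0.00320), where the median of all genes was 0.32. Per kilobase of exon it made up 63.7% ± 2.96 of the β chains in the wild type against 71.9% ± 3.03 in the knockout, while Itgb5 went from 24.5% ± 2.87 to 18.7% ± 2.26 and Itgb4 from 8.43% ± 3.17 to 3.69% ± 0.695 (SD, n = 8).

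The other genes of the pathway were taken from 4 lists with 93 genes, of which 85 were tested, 32 rose and 26 fell (68.2% past the threshold). Over all tested genes 48.3% passed the threshold, 25.6% higher and 22.7% lower. The counts per list below stand beside these shares, and no list was tested as a set. With total counts 51 rose and 14 fell, where 8270 and 1415 of all 14803 tested genes did. With the endothelial score as a covariate 17 rose, where 2339 of all tested genes did. Of the integrin adhesion complex, the proteins that tie the β chain to actin, 13 of 31 rose and 9 fell, with a median log2 fold change of 0.07. Bcar1, a docking protein of focal adhesions, rose from a median of 30.2 to 64.7 CPM (0.98, SE 0.114, edgeR adjusted p = 6.98e-07), and Apbb1ip, which links Rap1 to talin, from 14.8 to 27.8 CPM (0.96, SE 0.0881, adjusted p = 2.68e-08), both without overlap. Parvb, an actin-binding parvin, rose by 0.96 but was at 0.59 (adjusted p = 0.0529) with muscle score in the fit and was at -0.40 with the endothelial score as a covariate. Tns3, a tensin, fell from a median of 587 to 329 CPM (-0.80, SE 0.0739, adjusted p = 2.98e-08) without overlap, and Parva and Lims2, partners of integrin-linked kinase, fell by 0.46 and 0.60. With total counts Parva and Lims2 missed the threshold, at -0.16 (adjusted p = 0.0801) and -0.31 (adjusted p = 0.170).

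Of the basement membrane partners and laminin receptors other than integrins, 7 of 23 rose and 9 fell, with a median of 0.19. Col18a1, whose fragment is endostatin, rose from a median of 8.43 to 87.1 CPM without overlap (log2 fold change 3.44, SE 0.316, edgeR adjusted p = 2.10e-07). Col4a1, a chain of the common type IV collagen network, rose from a median of 103 CPM to 251 CPM (1.38, SE 0.322, adjusted p = 0.00220), but with the endothelial score as a covariate it passed as lower, at -0.56 (adjusted p = 0.0386). Smoc2 rose by 1.31 (0.58, adjusted p = 0.119 with that covariate), whereas its relative Smoc1 fell by 2.84. Col4a3, a chain of the kidney type IV network, fell from a median of 27.7 CPM to 6.32 CPM (-2.20, SE 0.169, adjusted p = 3.74e-09) and Fbln1 from 95.1 to 30.2 CPM (-1.80, SE 0.199, adjusted p = 1.02e-06), both without overlap.

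Of the integrin ligands other than laminins, 10 of 23 rose and 5 fell, with a median of 0.43. Edil3, an RGD protein that binds αv integrins, rose from a median of 7.75 to 86.9 CPM (log2 fold change 3.55, SE 0.187, edgeR adjusted p = 4.14e-11), and Mfge8, its close relative, fell from 502 to 207 CPM (-1.39, SE 0.159, adjusted p = 6.61e-07), both without overlap. Postn, the αv ligand periostin, rose from a median of 7.08 CPM to 400 CPM (5.04, SE 0.863, adjusted p = 1.94e-04), and Tnn, tenascin-W, from 0.403 to 4.94 CPM (4.25, SE 0.717, adjusted p = 1.30e-04). With the endothelial score as a covariate both missed the threshold, at 2.34 (adjusted p = 0.0504) and 1.28 (adjusted p = 0.282). Tnn had 0 to 7 counts per wild type library and entered the test through its knockout libraries, which favours a call of an increase. Col1a2 and Col1a1, the type I collagen ligands of α2 and α11, fell by 1.44 and 0.95, and Col1a1 missed the threshold with that covariate (-0.63, adjusted p = 0.271). Of the hemidesmosome and tetraspanin partners, 2 of 8 rose and 3 fell. Cd82, a tetraspanin, rose from a median of 20.5 CPM to 55.8 CPM without overlap (1.54, SE 0.102, adjusted p = 2.50e-10), and Dst rose by 0.28. The tetraspanins Cd81, Cd9 and Cd151 fell, by 0.37, 0.35 and 0.27, with overlap. The Cd9 call was lost without wild type library 8 or knockout library 1, 7 or 8 (-0.29 to -0.33), and the Cd151 call without wild type library 3, 5, 6 or 8 or knockout library 1, 2, 3, 4 or 8 (-0.19 to -0.27). Without libraries 6, 7 and 8 together, Dst was at 0.17 (adjusted p = 0.142) and Cd9 at -0.26 (adjusted p = 0.0961). With total counts Cd151 was at 0.03, Cd81 at -0.06 and Cd9 at -0.06, none past the threshold, and Dst and Cd9 changed sign with the endothelial score as a covariate, to -0.06 and 0.01.

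Exons of Itga1, Itga4, Itga7, Itga8, Itga10, Itgad, Itgam, Itgav, Itgb4, Lama2, Lama3 and Lamc3 overlap those of another gene in the GENCODE M21 annotation. For Itga1, Itga10 and Itgam the overlap was on the same strand, so that reads there could belong to either gene whatever the strand setting. Itgad overlapped genes on both strands, and the others overlapped on the other strand only. The use of strand during counting is not given in the sources used here, so the counts of all these genes are uncertain to that extent. Among the pathway genes named, Lims2, Col4a1, Col4a3, Dst, Cd81, Cd9 and Cd151 had such overlaps on the other strand.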

How the data were processed

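The authors deposited 1 table of raw counts per library, whole numbers under the header matchCounts for 25719 Ensembl genes. Per the submitters' processing notes, kallisto and featureCounts were used with the build GRCm39, with no roles or versions. The annotation and strand setting are not given in the sources used here. Symbols were matched for 25614 identifiers. Exon lengths, overlaps and chromosomes came from GENCODE M21 (GRCm38).

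Counts were tested in edgeR 4.0.16 (R 4.3.3) with TMM normalisation, the default expression filter by genotype, robust dispersions, the two-sided quasi-likelihood F test and Benjamini-Hochberg adjustment over all 14803 tested genes (threshold 0.05). Genotype was the only term. CPM used TMM-scaled library sizes, and log2 CPM a prior count of 2. The floor was 3 counts, 0.145 to 0.336 CPM by library, and covers counting error only. The fit was tested on simulated data.

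The members and lists were chosen with earlier results of these data known. The counts cover all 38 members, of which 1 is not reported here by name. Of each pathway list, up to 3 genes with the largest increase and 3 with the largest decrease past the threshold and with a mean log2 CPM of at least 1 were named. Alternatives were other scalings, filters and tools (DESeq2 1.42.0, limma 3.58.1), the replicate block, marker scores as covariates, each library left out in turn and, added after seeing the data, the 3 knockout libraries with the highest muscle score left out.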

Additional observations from a re-analysis of the deposited data

Results flagged for a closer look

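In 66 checks of 8 libraries each, over the 33 tested genes and both genotypes, the library at an end of the range was set off from the others in 3. By chance about 1 check in 20 does this, which comes to 3.30. Wild type library 3 had the lowest Itga2, with a log2 CPM of 6.16 against 6.84 in the next library, and the highest Itgb4, with 8.30 against 7.51. Without it the log2 fold changes were -0.93 for Itga2 and -1.16 for Itgb4, and both passed the threshold (edgeR adjusted p = 1.02e-05 and 1.14e-07). Knockout library 2 had the lowest Itga4, with 4.63 against 4.95. Without it Itga4 passed the threshold at 0.24 (adjusted p = 0.00735).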

How the results depend on the processing

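With each library left out in turn, the genes higher in the knockout numbered 14 to 17 and the lower genes 9 to 10, and all 23 calls kept direction and threshold each time. Itga10 then lay between -0.03 and 0.12, Itgb1 between -0.01 and 0.06 and Itgb7 between -0.06 and 0.13 on the log2 scale, none past the threshold. DESeq2 size factors, TMM without the 20 most abundant genes, the DESeq2 Wald test, testing without a filter, a filter at a mean count of 10, limma-voom and non-robust dispersions kept all 23 calls. Some genes that missed the threshold in the main fit also passed, namely Itgb6, Itgb8 and Lamc1 with the DESeq2 Wald test. Itga4 and Lama4 passed with limma-voom, and Itgb6 with non-robust dispersions. Total counts kept 21, reversed Lamc1 (0.13) and Cd151 (0.03), and gave 51 pathway genes higher and 14 lower against 32 and 26. The muscle score as a covariate kept 22. The endothelial score as a covariate kept 13, with 7 higher genes against 14 and 17 higher pathway genes against 32. It reversed Itgb6 (-2.27), Itgb7 (-0.16), Itgb8 (0.05), Lama4 (-0.11), Lama5 (-0.30), Lamb1 (-0.25), Parvb (-0.40), Col4a1 (-0.56), Dst (-0.06) and Cd9 (0.01), and the cause was not tested. With the replicate number as a block, 14 genes were higher and 11 lower, no call was lost, and Itga3 (adjusted p = 0.0180) and Itgb8 (adjusted p = 0.0305) passed. Deviations of same-numbered libraries from their group means correlated between -0.40 and 0.39, over 0.1 in 3 of 8 pairs. Of 16 libraries, 2 correlated best with their own number. These values gave no clear sign of pairing by number but cannot exclude it, since the labels do not say what the numbers stand for. Depth limits Itgad, Itgae, Itgal, Itgb2l and Lama1, and the low wild type counts of Itgax and Lamc3.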
